A study of Malus domestica with 18 samples.

Results

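Apple genes that resemble the D3-type cyclins of Arabidopsis thaliana were followed in cultured shoots on 2 cytokinin media and a cytokinin-free medium. They were the genes of the deposited count table whose best Swiss-Prot match is named Cyclin-D3 and that had at least 10 counts in at least 3 libraries. Of 42841 genes in the table, 7 carry that name and 6 met the count rule. DVH24_021694 is matched to Cyclin-D3-1, DVH24_012496 and DVH24_034282 to Cyclin-D3-2, and DVH24_026256, DVH24_020669 and DVH24_030105 to Cyclin-D3-3. The seventh, DVH24_039331, also matched to Cyclin-D3-3 but with a coding length of only 312 bases, had 0 counts in all 18 libraries. The 6 counted genes have coding lengths of 1095 to 1194 bases. DVH24_030105, DVH24_012496 and the uncounted DVH24_039331 lie on the same chromosome sequence of the files' annotation. A name gives the nearest Arabidopsis protein and not a gene-by-gene equivalence, and reads of near-identical copies could have been split among the genes.

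D-type cyclins bind and activate cyclin-dependent kinases in the G1 phase of the plant cell cycle. The kinase complex phosphorylates the retinoblastoma-related protein, which releases E2F transcription factors and lets cells enter S phase, when DNA is copied. In Arabidopsis, the hormone cytokinin, a promoter of cell division, raises transcripts of Cyclin-D3-1, and D3 cyclins are known from dividing cells of the shoot apex and young leaves.

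The libraries come from poly(A) RNA of in vitro shoots of Malus x domestica cv. Húsvéti rozmaring, with the tissue labelled axillary shoot. Shoot explants 20 mm long, taken after a subculture without cytokinin, were put on 1 of 3 media. Thidiazuron (TDZ), a phenylurea with cytokinin activity, and 6-benzylaminopurine riboside (BAR), the riboside of an adenine-type cytokinin, were each given at 4.5 µM, and the control medium had neither. Indole butyric acid, an auxin, at 0.49 µM and gibberellic acid at 0.58 µM were in all 3 media. The 6 groups were TDZ, BAR and control at 4 week, and TDZ, BAR and control at 48 hour, with 3 libraries each. The labels call the replicates biological without saying whether they came from separate culture vessels, so the tests measure the spread between these libraries, which may in part be technical. One cultivar was studied, and the 4 week control shoots grew without added cytokinin throughout.

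The libraries held 12546489 to 21279097 counts, and 26053 genes had enough counts to be tested. Chlorophyll a-b binding proteins, which mark green tissue, summed to between 2710 and 16010 CPM (counts per 1000000 counts of effective library size) in the 4 week libraries and between 19728 and 34610 CPM in the 48 hour libraries, without overlap. Rubisco small subunit genes, also of green tissue, summed to 2167 to 10889 CPM at 4 week and 9296 to 17993 CPM at 48 hour. These ranges overlapped. Of 14 root marker genes 6 had no count in any library, and the list summed to at most 15.1 CPM. The library labelled TDZ, 4 week, replicate 3 stood apart from its group. Its Spearman correlation across genes was 0.807 and 0.803 with TDZ replicates 1 and 2, and 0.944 to 0.947 with the 4 week controls. Type-A response regulators, genes that cytokinin induces, summed to 15.7 CPM in it, against 476 and 403 CPM in TDZ replicates 1 and 2, and 12.4 to 26.8 CPM in the 4 week controls. Whether its label is right was not tested, and results that rest on it are given with and without it. In 4 groups, TDZ and BAR at 4 week and BAR and control at 48 hour, the name of replicate 3 in the count table is that of replicate 1 with a b added. The labels call them replicates and do not say what the b marks, so whether each pair is 1 plant sample prepared again is not known. Replicates 1 and 3 correlated at 0.807, 0.988, 0.947 and 0.969 in these groups, in the same order. Control, 4 week, replicate 1 correlated at 0.927 and 0.931 with the other controls of that time, which correlated at 0.987 with each other.

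The D3 cyclins held very different shares of their summed level, and the make-up differed between times and media. Levels of different genes were compared as FPKM, the authors' values per coding length. The 6 genes together averaged 154 ± 78.1 FPKM on TDZ, 57.0 ± 0.820 FPKM on BAR and 61.7 ± 8.49 FPKM on control at 4 week (SD, n = 3 each). They averaged 333 ± 45.6 FPKM on TDZ, 279 ± 42.3 FPKM on BAR and 205 ± 26.4 FPKM on control at 48 hour (SD, n = 3 each). At 4 week the TDZ libraries summed to 184, 213 and 65.7 FPKM in replicates 1, 2 and 3, so the library that stood apart lay within the range of the controls, 53.2 to 70.1 FPKM.

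**Figure D1:**
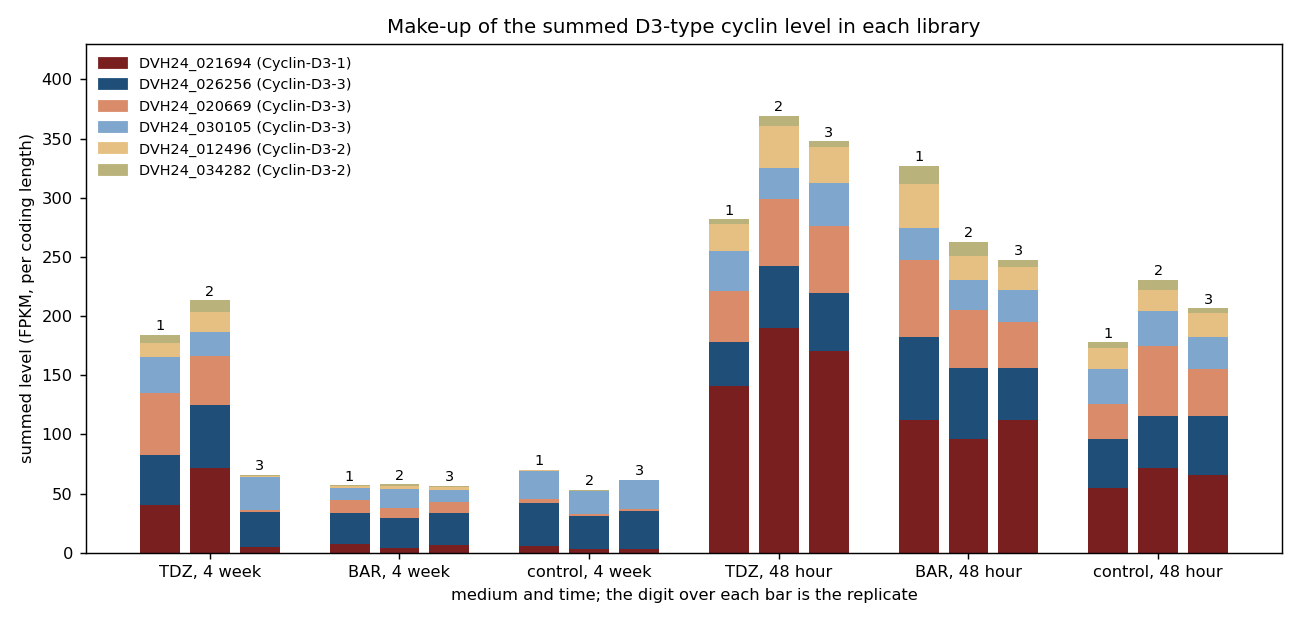
Summed level of the 6 D3-type cyclin genes in each library, in FPKM on the vertical axis, with 1 bar per library grouped by medium and time and 1 colour per gene. Bars of 48 hour are 178 to 369 FPKM high, those of BAR and control at 4 week 53.2 to 70.1 FPKM, and TDZ at 4 week has 2 bars of 184 and 213 FPKM and 1 of 65.7 FPKM.

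DVH24_021694 was the most abundant D3 cyclin at 48 hour and a minor one in the 4 week controls. It held 6.37 ± 1.94% of the summed FPKM in 4 week controls and 31.3 ± 0.415% in 48 hour controls (SD, n = 3 each). On cytokinin at 48 hour its share was 50.2 ± 1.20% on TDZ and 38.7 ± 5.84% on BAR. DVH24_026256 and DVH24_030105 made up most of what was left late in culture. As a pair, grouped after their values were seen, they held 88.5 ± 4.13% of the summed FPKM in the 4 week controls and 36.2 ± 4.22% in the 48 hour controls. On BAR they held 67.6 ± 4.40% at 4 week and 30.2 ± 2.10% at 48 hour. On TDZ they held 53.9 ± 29.1% at 4 week, or 37.2 ± 3.49% in replicates 1 and 2 alone, and 23.7 ± 2.17% at 48 hour. In the plot of summed levels the bars of the 4 week controls are therefore mostly the 2 blue segments.

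Between 48 hour and 4 week, 4 of the 6 D3 cyclins fell by more than 10-fold on the control medium, and the other 2 did not pass the test. Tests used edgeR's quasi-likelihood fit, a gene being called at a Benjamini-Hochberg adjusted p under 0.05 over all 26053 genes. In this comparison 36.7% of all genes were called in either direction and 21.0% lower at 4 week. Fold changes are given on the log2 scale ± SE, their standard error. Since these are bulk samples, fewer cells that express a gene and less RNA per cell cannot be told apart. The sum of the chlorophyll a-b binding proteins was lower in every 4 week library than in any 48 hour library, though not every member fell. The sums of the rubisco small subunit genes overlapped. The part of either list in the changes over time was not tested.

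DVH24_021694 had 7.09, 3.76 and 3.34 CPM in 4 week controls, against 65.3, 85.4 and 77.6 CPM in 48 hour controls. DVH24_020669 had 4.58, 1.70 and 1.99 CPM in 4 week controls, against 33.5, 68.4 and 46.0 CPM in 48 hour controls. DVH24_012496 was close to its detection limit late, with 1.04, 0.121 and 0.0795 CPM in 4 week controls, from 19, 2 and 1 counts, against 19.9, 20.9 and 23.1 CPM in 48 hour controls. Every 4 week library lay below every 48 hour library for all 3 genes. Their log2 fold changes were -4.00 ± 0.64 (adjusted p = 0.00067), -4.15 ± 0.77 (adjusted p = 0.00126) and -5.58 ± 0.95 (adjusted p = 0.000886).

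DVH24_034282, the least abundant of the family, had 0.491, 1.03 and 0.159 CPM in 4 week controls, against 6.00, 9.84 and 5.10 CPM in 48 hour controls. It fell by 3.59 ± 0.73 on the log2 scale (adjusted p = 0.002), again without overlap. DVH24_026256, with 30.7 to 40.2 CPM in 4 week controls against 45.5 to 55.2 CPM in 48 hour controls, had a log2 fold change of -0.49 ± 0.22 (adjusted p = 0.0939). DVH24_030105, with 21.3 to 27.8 CPM against 29.7 to 33.9 CPM in the same groups, had one of -0.36 ± 0.22 (adjusted p = 0.208). Both genes were lower in each 4 week library than in any 48 hour library, as were 27.6% of all genes. Their change was small: 1.40-fold and 1.28-fold, against 12.1-fold to 47.7-fold for the 4 genes that were called. The largest of these, for DVH24_012496, rests on the few counts given above, and its log2 fold change was -7.60 without control, 4 week, replicate 1 and -5.13 without replicate 2 of that group, called in both.

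**Figure D2:**
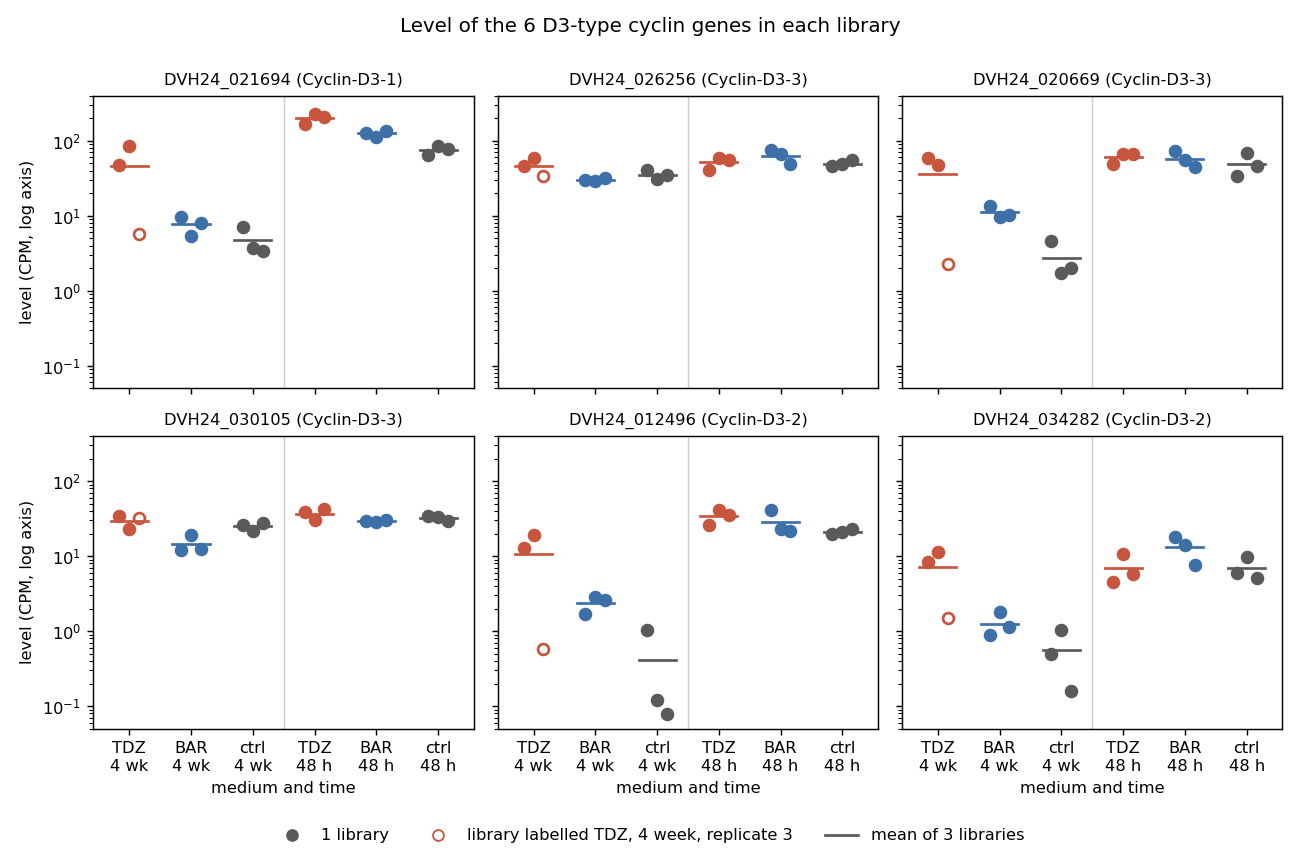
Level of each D3-type cyclin gene in each library, in CPM on a log axis, by medium and time, with the mean of 3 libraries as a line and the library labelled TDZ, 4 week, replicate 3 as an open circle. DVH24_021694, DVH24_020669, DVH24_012496 and DVH24_034282 lie below 8 CPM in all 4 week controls, while DVH24_026256 and DVH24_030105 remain between 21.3 and 40.2 CPM there. DVH24_034282 also has 48 hour controls below 8 CPM, at 6.00 and 5.10 CPM.

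On BAR all 6 D3 cyclins fell between 48 hour and 4 week, where 11.2% of all genes were called lower and 21.2% in either direction. DVH24_021694 had 9.67, 5.33 and 8.11 CPM at 4 week, against 129, 113 and 133 CPM at 48 hour, a log2 fold change of -4.02 ± 0.63 (adjusted p = 0.000676). DVH24_012496 had 1.69, 2.89 and 2.58 CPM against 41.7, 22.8 and 21.9 CPM at the same times (log2 -3.59 ± 0.83, adjusted p = 0.0066). DVH24_034282 had 0.874, 1.78 and 1.13 CPM against 17.9, 14.0 and 7.71 CPM (log2 -3.38 ± 0.70, adjusted p = 0.00354). For every member all BAR libraries of 4 week lay below all those of 48 hour, as for 24.1% of all genes.

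DVH24_020669 had 13.3, 9.72 and 10.2 CPM on BAR at 4 week, against 72.6, 55.6 and 45.1 CPM at 48 hour. Its log2 fold change was -2.39 ± 0.70 (adjusted p = 0.024). The call was lost without BAR, 48 hour, replicate 1 or without any 1 of the 3 BAR libraries of 4 week, with adjusted p from 0.0661 to 0.0802. The test of the difference from the control medium is given below with the response to BAR.

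The pair that changed little on control medium also fell on BAR. DVH24_026256 had 29.9, 29.2 and 31.8 CPM at 4 week, against 75.2, 65.9 and 48.5 CPM at 48 hour, and fell by 1.06 ± 0.22 on the log2 scale (adjusted p = 0.00393). DVH24_030105 had 11.9, 19.3 and 12.5 CPM at 4 week, against 29.4, 28.4 and 30.4 CPM at 48 hour, and fell by 1.01 ± 0.22 (adjusted p = 0.0048). These are changes of 2.09-fold and 2.01-fold.

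On TDZ only DVH24_021694 was called lower at 4 week, where 9.05% of all genes were called lower and 20.1% in either direction. It had 47.2, 84.1 and 5.67 CPM at 4 week, the last in the library that stood apart, against 167, 228 and 207 CPM at 48 hour. The 2 times did not overlap, with the 4 week libraries lower, as for 18.5% of all genes. It fell by 2.13 ± 0.58 on the log2 scale (adjusted p = 0.0179), and by 1.61 ± 0.33 without that library (adjusted p = 0.0038), where 9.44% of all genes were called lower and 17.9% in either direction. Leaving out TDZ, 48 hour, replicate 2 gave an adjusted p of 0.0529, and a fit of the TDZ libraries alone gave 0.188.

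The other 3 genes that fell on control medium gave no call on TDZ. DVH24_020669 had 59.4, 46.8 and 2.25 CPM at 4 week, against 48.8, 66.1 and 66.3 CPM at 48 hour, a log2 fold change of -0.74 ± 0.66 (95% interval -2.15 to 0.67), or -0.19 ± 0.35 without the library that stood apart. DVH24_034282 had 8.37, 11.5 and 1.48 CPM against 4.47, 10.8 and 5.70 CPM (log2 0.03 ± 0.63, interval -1.30 to 1.36), and 0.50 ± 0.52 without it. DVH24_012496 lay lower at 4 week in every library, with 12.9, 19.0 and 0.580 CPM against 26.3, 40.7 and 35.7 CPM, and its log2 fold change of -1.66 ± 0.75 had an adjusted p of 0.131. In each of these genes TDZ replicates 1 and 2 of 4 week were 8.37 CPM or more, and replicate 3 was 2.25 CPM or less. DVH24_026256 and DVH24_030105 gave -0.17 ± 0.22 and -0.30 ± 0.22 on TDZ, without a call.

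**Figure D3:**
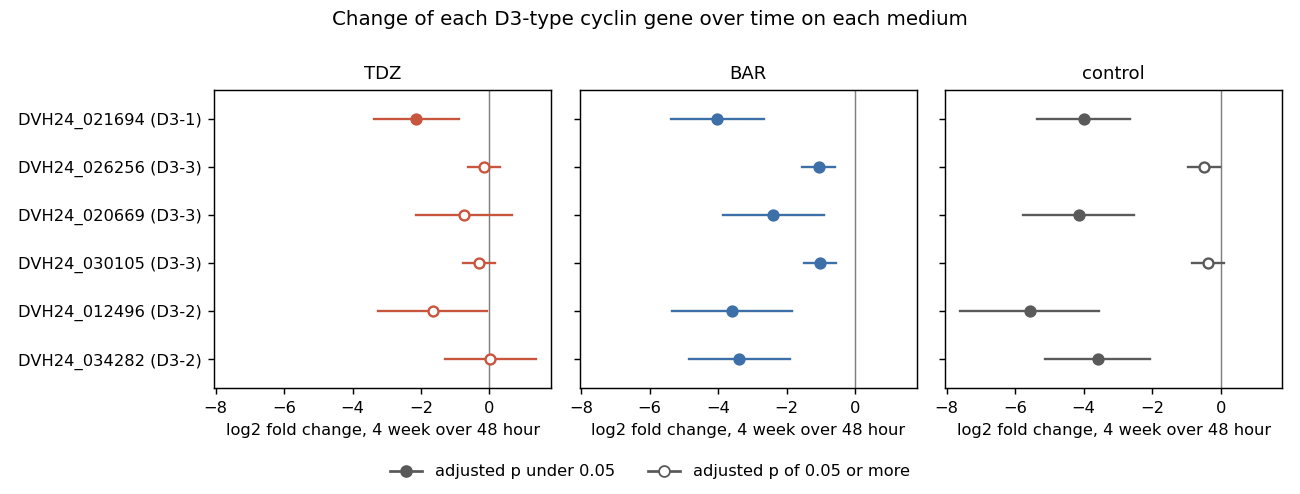
Log2 fold change of each D3-type cyclin gene at 4 week over 48 hour on TDZ, BAR and control medium, with its 95% interval as a line and a filled point where the adjusted p is under 0.05. Called genes number 1 on TDZ, 6 on BAR and 4 on control medium.

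At 4 week all 6 genes had a higher fitted level on TDZ than on control. The difference was 3.24 or more on the log2 scale for the 4 genes that fell on control medium. These 4 genes and DVH24_026256 lay above every control in TDZ replicates 1 and 2. In the fit of the 9 libraries of 4 week only DVH24_034282 passed the test. It had 8.37, 11.5 and 1.48 CPM on TDZ against 0.491, 1.03 and 0.159 CPM on control, with a log2 fold change of 3.61 ± 0.88 and an adjusted p of 0.0498. Every TDZ library lay above every control, as for 14.0% of all genes. In this comparison 5.60% of all genes were called in either direction and 3.00% higher. DVH24_021694, at 47.2, 84.1 and 5.67 CPM on TDZ against 7.09, 3.76 and 3.34 CPM on control, had 3.24 ± 0.81 (adjusted p = 0.0517). DVH24_020669 had 3.67 ± 0.96 (adjusted p = 0.0544) and DVH24_012496 4.61 ± 1.27 (adjusted p = 0.0575), with TDZ replicate 3 inside the range of the controls for both.

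Without replicate 3 of TDZ, 4 week, all 4 genes were called higher, and so were 22.4% of all genes, with 41.5% called in either direction. The log2 fold changes were then 3.75 ± 0.42 for DVH24_021694, 4.22 ± 0.42 for DVH24_020669, 5.14 ± 0.80 for DVH24_012496 and 4.07 ± 0.64 for DVH24_034282, with adjusted p from 0.000436 to 0.00207. These are 13.5-fold to 35.2-fold differences. Without control, 4 week, replicate 1, DVH24_021694, DVH24_020669 and DVH24_012496 were called, with adjusted p of 0.047, 0.0496 and 0.0347, and DVH24_034282 was not (0.0579). The fold change of DVH24_012496 was then 6.61 ± 1.56, and 17.1% of all genes were called in either direction. Without any other 1 of the 4 week libraries no D3 cyclin was called, nor was any of the 26053 genes. The median log2 fold change of all genes was 0.11 with all 9 libraries and 0.04 without the library that stood apart, against 3.42 and 3.91 for the 6 D3 cyclins.

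DVH24_026256 and DVH24_030105 did not pass between TDZ and control at 4 week. DVH24_026256 had 46.2, 58.5 and 33.7 CPM on TDZ against 40.2, 30.7 and 35.2 CPM on control, a log2 fold change of 0.36 ± 0.22 (interval -0.15 to 0.87). Without TDZ replicate 3 it was 0.53 ± 0.19 (adjusted p = 0.0504). DVH24_030105 had 34.2, 23.1 and 32.0 CPM on TDZ against 26.3, 21.3 and 27.8 CPM on control, a log2 fold change of 0.22 ± 0.26 (interval -0.37 to 0.81). Groups overlapped for both genes, for DVH24_026256 only through TDZ replicate 3, the library that stood apart.

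Between BAR and control at 4 week no D3 cyclin was called by edgeR in the fit of the 9 libraries of 4 week, where 16.6% of all genes were called. One of the 6 had an unadjusted p under 0.05, as did 37.5% of all genes. In edgeR's fit of all 18 libraries DVH24_020669 was called higher (adjusted p = 0.0469) and DVH24_030105 lower (adjusted p = 0.0148), with 29.9% of all genes called. DVH24_030105 was also called by DESeq2 and with RLE scaling (adjusted p = 0.0128 and 0.0491), and DVH24_020669 with the libraries named b summed (adjusted p = 0.0309). In these settings 32.3%, 17.7% and 18.7% of all genes were called, in the same order. DVH24_020669 lay higher in every BAR library (9.72 to 13.3 CPM) than in any control (1.70 to 4.58 CPM), with a log2 fold change of 1.92 ± 0.91 (adjusted p = 0.157). DVH24_012496 lay higher too, at 1.69 to 2.89 CPM on BAR against 0.0795 to 1.04 CPM on control (log2 2.39 ± 1.19, adjusted p = 0.175). Every BAR library was above every control for 30.3% of all genes. DVH24_030105 went the other way, with 11.9, 19.3 and 12.5 CPM on BAR against 26.3, 21.3 and 27.8 CPM on control (log2 -0.86 ± 0.26, adjusted p = 0.0554). Every BAR library was below every control for this gene and for 19.9% of all genes.

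The library labelled TDZ, 4 week, replicate 3 also entered this test, because the 9 libraries of 4 week shared 1 estimate of spread. Without it, DVH24_020669 and DVH24_012496 were called higher on BAR, by 1.91 ± 0.37 (adjusted p = 0.00611) and 2.36 ± 0.74 (adjusted p = 0.0367). DVH24_030105 was called lower, at -0.86 ± 0.26 (adjusted p = 0.0318). Of all genes 19.5% were then called higher, 17.3% lower and 36.8% in either direction. DVH24_021694, at 5.33 to 9.67 CPM on BAR against 3.34 to 7.09 CPM on control, was not called in either fit (log2 0.62 ± 0.76, interval -1.10 to 2.35).

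TDZ exceeded BAR at 4 week in the fitted level of all 6 genes, with no call by edgeR in the fit of the 9 libraries of 4 week. In edgeR's fit of all 18 libraries DVH24_021694, DVH24_030105 and DVH24_034282 were called higher on TDZ (adjusted p = 0.0183, 0.013 and 0.0337), with 8.40% of all genes called. DESeq2 called the same 3, with 10.7% of all genes called. In the fit of the 9 libraries 4 of the 6 genes had an unadjusted p under 0.05, as did 18.6% of all genes. That fit called 0.518% of all genes. DVH24_030105 was the nearest, with 34.2, 23.1 and 32.0 CPM on TDZ against 11.9, 19.3 and 12.5 CPM on BAR (log2 1.08 ± 0.26, adjusted p = 0.0936). Its groups did not overlap, TDZ being higher, as for 9.94% of all genes. Without TDZ replicate 3 the other 5 genes were called higher on TDZ, by 0.83 ± 0.19 for DVH24_026256 and by 2.30 to 3.13 on the log2 scale for the other 4, while DVH24_030105 was not (1.01 ± 0.28, adjusted p = 0.0519). In that fit 6.78% of all genes were called higher and 12.1% in either direction.

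**Figure D4:**
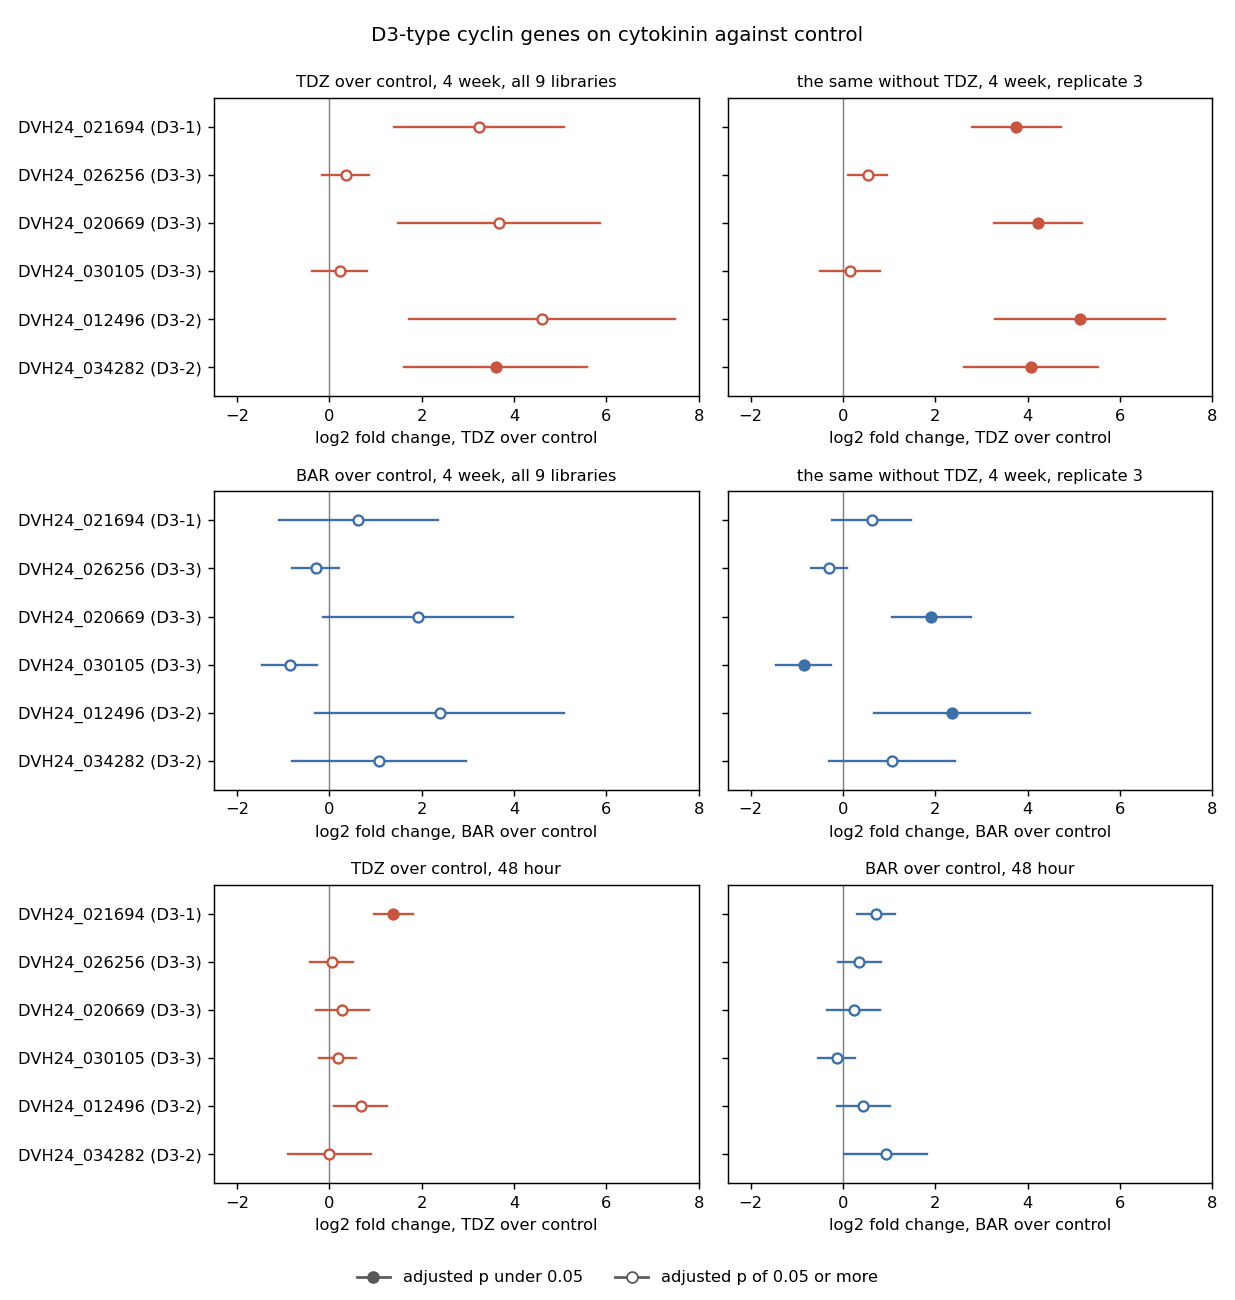
Log2 fold change of each D3-type cyclin gene on TDZ or BAR over control, with its 95% interval as a line and a filled point where the adjusted p is under 0.05, at 4 week with all 9 libraries (left) and without replicate 3 of TDZ, 4 week (right), and at 48 hour (bottom row). At 48 hour DVH24_021694 on TDZ is the 1 filled point, at 1.39.

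At 48 hour the Cyclin-D3-1 gene was higher on TDZ than on control, and no other D3 cyclin passed the test on either cytokinin. DVH24_021694 had 167, 228 and 207 CPM on TDZ, 129, 113 and 133 CPM on BAR and 65.3, 85.4 and 77.6 CPM on control. The 3 groups were fully separated, TDZ above BAR and BAR above control. On TDZ it was 2.62-fold higher than on control (log2 1.39 ± 0.20, 95% interval 0.97 to 1.81, adjusted p = 0.0101), where 0.177% of all genes were called higher and 0.349% in either direction. Leaving out control replicate 1, control replicate 3 or TDZ replicate 2 kept it between 1.28 and 1.40 on the log2 scale and gave adjusted p of 0.0582, 0.062 and 0.0699. In a fit of all 18 libraries, with a common dispersion of 0.185 against 0.126 in the 48 hour libraries alone, the fold change was 1.40 with an adjusted p of 0.815.

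On BAR DVH24_021694 was 1.64-fold the control (log2 0.72 ± 0.19, interval 0.30 to 1.13), with an unadjusted p of 0.0025 and an adjusted p of 0.717. BAR against control gave no D3 cyclin call by edgeR or DESeq2 at 48 hour, and 2 of the 6 genes had an unadjusted p under 0.05, as did 4.32% of all genes. Of all genes 0.0345% were called, and 5.68% lay higher in every BAR library than in any control. TDZ was 1.59-fold BAR for the same gene (log2 0.67 ± 0.19, interval 0.26 to 1.09, adjusted p = 0.213), also uncalled by edgeR, where 0.111% of all genes were called and TDZ lay above BAR without overlap for 6.56%. An unadjusted p under 0.05 was seen for 2 of the 6 and for 10.5% of all genes. DESeq2 called the difference between TDZ and BAR for DVH24_021694, with an adjusted p of 0.0299, where it called 1.88% of all genes.

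The other 5 genes were not called against control at 48 hour. DVH24_012496 had 26.3, 40.7 and 35.7 CPM on TDZ against 19.9, 20.9 and 23.1 CPM on control, higher without overlap, as were 6.67% of all genes, and with a log2 fold change of 0.68 ± 0.27 (adjusted p = 0.477). DVH24_034282 was highest on BAR, with 17.9, 14.0 and 7.71 CPM against 6.00, 9.84 and 5.10 CPM on control (log2 0.92 ± 0.42, adjusted p = 1), and its TDZ libraries at 4.47, 10.8 and 5.70 CPM overlapped the controls. DVH24_026256, DVH24_020669 and DVH24_030105 overlapped control on both cytokinins, with log2 fold changes of 0.05, 0.28 and 0.18 on TDZ and 0.35, 0.23 and -0.13 on BAR. Their 95% intervals ended at or below 0.86 on TDZ and 0.81 on BAR, so a change as large as the 1.39 of DVH24_021694 lay outside them.

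The order of the 6 groups differed between genes. DVH24_021694 ran from TDZ, BAR and control at 48 hour, with means of 201, 125 and 76.1 CPM, down to TDZ, BAR and control at 4 week, with 45.7, 7.71 and 4.73 CPM. The 3 groups of 48 hour did not overlap, and the remaining neighbours did. DVH24_012496 had the same order of groups, with means from 34.2 down to 0.412 CPM, and DVH24_020669 as well, from 60.4 down to 2.76 CPM. For DVH24_020669 the only neighbours that did not overlap were BAR and control at 4 week. DVH24_026256 ran from 63.2 CPM on BAR at 48 hour to 30.3 CPM on BAR at 4 week, and all its neighbours overlapped. DVH24_030105 was lowest on BAR at 4 week as well (14.6 CPM), below every control of that time. These orders include replicate 3 of TDZ, 4 week. In replicates 1 and 2 alone DVH24_020669 averaged 53.1 CPM, above the 48 hour controls (49.3 CPM). DVH24_026256 averaged 52.4 CPM there, above TDZ and control at 48 hour (51.9 and 49.7 CPM). DVH24_030105 averaged 28.7 CPM, below BAR at 48 hour (29.4 CPM). DVH24_021694 and DVH24_012496, at 65.7 and 15.9 CPM, kept their order.

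The response to TDZ was larger at 4 week than at 48 hour for 2 members in the test of the difference itself, on all 18 libraries. This test equally compares the change over time on TDZ with that on control medium. DVH24_034282 differed by 3.62 ± 0.95 (adjusted p = 0.0347) and DVH24_020669 by 3.41 ± 0.98 (adjusted p = 0.0459), where 5.44% of all genes were called higher and 7.58% in either direction. DVH24_012496 missed the threshold at 3.92 ± 1.16 (adjusted p = 0.0504), and DVH24_021694 had 1.86 ± 0.81 (adjusted p = 0.15). Without replicate 3 of TDZ, 4 week, these 4 genes were called in the same order at 4.09 ± 0.76, 3.95 ± 0.49, 4.45 ± 0.70 and 2.38 ± 0.43, with 16.1% of all genes called higher and 27.3% in either direction. DVH24_026256 and DVH24_030105 had 0.32 ± 0.31 and 0.06 ± 0.31 with all 18 libraries, with intervals that ended at 0.98 and 0.71.

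Both calls depended on which libraries were in the fit. DVH24_020669 was called in 2 of 18 fits that left out 1 library, those without TDZ, 4 week, replicate 3 or control, 4 week, replicate 1, and had adjusted p of 0.0549 to 0.123 without any other. DVH24_034282 was called in 8 of 18, the same 2 and the 6 that left out a BAR library, and had adjusted p of 0.0572 to 0.0906 without any 1 of the other 10. With only the 4 groups compared in the fit, no member was called. The median of this difference over all genes was 0.15, and over the 6 D3 cyclins 2.64.

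The response to BAR gave no D3 cyclin call in the same test, by edgeR or DESeq2, and no unadjusted p under 0.05, against 29.6% of all genes, where 11.4% of all genes were called. DVH24_020669 differed by 1.76 ± 0.97 (interval -0.29 to 3.81, adjusted p = 0.239), and without replicate 3 of TDZ, 4 week by 1.75 ± 0.47 (adjusted p = 0.0139), where 13.2% of all genes were called higher and 22.6% in either direction. DVH24_021694, the D3 cyclin called on TDZ at 48 hour, had -0.02 ± 0.84 (interval -1.80 to 1.76).

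Other genes of the G1 to S and mitotic machinery were read from 7 lists drawn from Swiss-Prot names. Their counts stand beside 21.0% of all genes called lower over time on control medium, 11.2% on BAR, and 9.05% on TDZ or 9.44% without replicate 3 of TDZ, 4 week. On control medium the A-type and B-type cyclins, which act in S phase and mitosis, fell over time in 6 of 9 and 5 of 6 tested genes, with none higher. Cyclin-A2-1 (DVH24_012194) had 1.13 ± 0.318 CPM in 4 week controls and 49.0 ± 14.5 CPM in 48 hour controls (SD, n = 3 each). G2/mitotic-specific cyclin-2 (DVH24_038159) fell by 4.34 ± 0.70 on the log2 scale (adjusted p = 0.000686). Kinase partners fell in 4 of 5, Cyclin-dependent kinase B2-2 (DVH24_015791), a mitotic kinase, averaging 2.17 ± 1.14 CPM in 4 week and 26.2 ± 5.58 CPM in 48 hour controls. The S-phase list of replication licensing factors, ribonucleotide reductase and the replication clamp fell in 14 of 22 and rose in 1, with DNA replication licensing factor MCM4 (DVH24_042440) at 2.85 ± 0.595 CPM in 4 week and 27.5 ± 4.79 CPM in 48 hour controls. Median log2 fold changes were -4.83 for A-type and -4.78 for B-type cyclins, -2.48 for the kinases and -2.20 for the S-phase list, beside -3.80 for the D3 cyclins and -0.04 for all genes tested.

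The other lists moved less together. Of 10 other D-type cyclins tested, 2 fell on control medium, both matched to Cyclin-D1-1. One of them, DVH24_034392, averaged 0.0894 ± 0.0813 CPM in 4 week and 11.3 ± 2.95 CPM in 48 hour controls. Of 14 inhibitors of cyclin-dependent kinases 2 rose and 3 fell, both that rose being matched to SMR11, of which DVH24_014967 had 28.6 ± 5.82 CPM in 4 week and 8.68 ± 2.47 CPM in 48 hour controls. Of 13 retinoblastoma-related, E2F and DP genes 1 fell, E2F transcription factor-like E2FE (DVH24_008778), an atypical E2F that restrains endoreduplication in Arabidopsis, with a log2 fold change of -1.94 ± 0.37 (adjusted p = 0.00136).

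On BAR A-type cyclins fell over time in 7 of 9, B-type cyclins in 5 of 6, kinases in 5 of 5 and S-phase genes in 16 of 22, with none higher in these 4 lists. On TDZ none of the A-type or B-type cyclins passed the test over time. Kinases fell in 2 of 5 and S-phase genes in 5 of 22 with 1 higher, and 2 of 10 other D-type cyclins were higher at 4 week, Cyclin-D2-1 (DVH24_033588) at 4.49 ± 2.05 CPM against 1.17 ± 0.274 CPM at 48 hour and Cyclin-D1-1 (DVH24_007061) at 7.01 ± 4.84 CPM against 1.03 ± 0.874 CPM. Without replicate 3 of TDZ, 4 week, the counts on TDZ were 1 of 9 A-type cyclins, 0 of 6 B-type cyclins, 0 of 5 kinases and 6 of 22 S-phase genes lower, and DVH24_033588 was no longer called (adjusted p = 0.066). Inhibitors fell in 4 of 14 with 1 higher on BAR, and in 1 with 2 higher on TDZ, and 1 of 13 retinoblastoma-related, E2F and DP genes fell on either. In the test of the difference from control medium, the BAR response, 1 gene of the 7 lists was called, Cyclin-dependent kinase inhibitor 3 (DVH24_028616), whose log2 response at 4 week minus that at 48 hour was -1.81 ± 0.52 (adjusted p = 0.0384). That test called 11.4% of all genes. Without replicate 3 of TDZ, 4 week, it called 2 other D-type cyclins, 1 A-type cyclin and 2 kinases higher. It then called 2 inhibitors and 1 S-phase gene lower, beside 22.6% of all genes called in either direction.

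Between TDZ and control at 4 week these lists held 0 or 1 called gene each with all 9 libraries, where 5.60% of all genes were called. Without the library that stood apart, 7 of 9 A-type cyclins, 5 of 6 B-type cyclins with 1 lower, 4 of 5 kinases, 5 of 10 other D-type cyclins and 13 of 22 S-phase genes with 1 lower were called higher on TDZ. In that fit 22.4% of all genes were called higher and 41.5% in either direction. Cyclin-D4-1 (DVH24_014429), another G1 cyclin, was called in both fits, with 6.90 ± 1.44 CPM on TDZ and 1.61 ± 0.559 CPM on control (SD, n = 3 each), and adjusted p of 0.0444 with all 9 libraries and 0.00753 without that library. The inhibitors held 5 higher and 2 lower of 14 in the fit without that library, and the retinoblastoma-related and E2F list 3 higher of 13, beside the same shares. BAR against control at 4 week gave 1 higher and 1 lower inhibitor and 0 calls in the other lists, where 16.6% of all genes were called. Without replicate 3 of TDZ, 4 week, it gave 3 other D-type cyclins, 1 A-type cyclin, 2 kinases and 1 inhibitor higher, and 1 B-type cyclin, 2 inhibitors and 3 S-phase genes lower, where 36.8% were called. The difference of the TDZ response between the times was called higher for 3 of 9 A-type cyclins, 2 of 6 B-type cyclins, 2 of 5 kinases, 1 of 10 other D-type cyclins and 1 of 22 S-phase genes, and lower for 1 of 14 inhibitors, beside 5.44% of all genes called higher. Without replicate 3 of TDZ, 4 week, it was called higher for 6, 5, 3, 3 and 11 genes of the same 5 lists, for 2 inhibitors with 2 lower and for 1 of 13 retinoblastoma-related, E2F and DP genes, beside 16.1% of all genes. At 48 hour 1 gene of all 7 lists was called against control, Cyclin-dependent kinase inhibitor 3 (DVH24_028616), with 27.5 ± 6.47 CPM on TDZ and 9.24 ± 1.58 CPM on control (log2 1.56 ± 0.28, adjusted p = 0.0346). Of all genes 0.349% were called on TDZ and 0.0345% on BAR at that time.

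Markers of the shoot meristem were also low in replicate 3 of TDZ at 4 week. The list of 20 genes, of which 14 were tested, summed to 174, 186 and 32.8 CPM on TDZ, 103, 82.9 and 105 CPM on BAR and 84.1, 38.4 and 41.4 CPM on control at 4 week, and to 113 to 256 CPM in the 48 hour libraries. SHOOT MERISTEMLESS (DVH24_016931), a homeobox protein of the stem-cell region, averaged 18.8 CPM on TDZ, 0.0537 CPM on BAR and 0 CPM on control at 4 week, and 3.62, 15.5 and 17.9 CPM on TDZ, BAR and control at 48 hour. More abundant members had other orders at 4 week. CLAVATA1 (DVH24_013013) averaged 33.3 CPM on TDZ, 48.8 CPM on BAR and 8.07 CPM on control. CLAVATA2 (DVH24_030312) averaged 19.0, 14.6 and 25.3 CPM on the same media. The TDZ means of 4 week include replicate 3. One of the 2 WUSCHEL genes had no count anywhere. The part of these markers in the D3 cyclin results was not tested.

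Within the family, 4 genes varied together across the 18 libraries. Pearson's r of log2(CPM + 1) between DVH24_021694, DVH24_020669, DVH24_012496 and DVH24_034282 was 0.89 to 0.98, DVH24_026256 correlated with these at 0.79 to 0.88, and DVH24_030105 with each of the other 5 at 0.42 to 0.59. These are descriptions over libraries that share their groups. Within a time the same 4 genes had r of 0.85 to 0.97 among the 9 libraries of 4 week, where the TDZ libraries spread widest, and 0.08 to 0.75 among the 9 of 48 hour. DVH24_026256 correlated with them at 0.63 to 0.86 at 4 week and 0.17 to 0.79 at 48 hour. Both ranges overlap those among the 4 genes.

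Genes whose pattern over the 18 libraries was most like that of the 3 most counted members were picked from 15519 tested genes that had a protein name and a mean of at least 5 CPM. For DVH24_021694 they were TOO MANY MOUTHS, a receptor-like protein of stomatal patterning (DVH24_031268, r = 0.98), the transcription repressor OFP2 (DVH24_014907, 0.98), Arabinogalactan protein 16 (DVH24_014318, 0.98), the catalytic subunit of DNA polymerase alpha (DVH24_030075, 0.98) and licensing factor MCM2 (DVH24_041154, 0.98). For DVH24_020669 they were Thaumatin-like protein 1 (DVH24_009960), Aspartyl protease AED3 (DVH24_006487), PLASMODESMATA CALLOSE-BINDING PROTEIN 2 (DVH24_023721), a receptor protein kinase matched to At4g34220 (DVH24_034291) and Glucan endo-1,3-beta-glucosidase 3 (DVH24_032384), each at 0.99. DVH24_026256 had looser company, with r of 0.92 for an inactive purple acid phosphatase 27 (DVH24_008521), BAG family molecular chaperone regulator 7 (DVH24_022730), GH3.9 (DVH24_027231), SEMI-ROLLED LEAF 2 (DVH24_015101) and G1-like9 (DVH24_041683). Within the 9 libraries of 48 hour the 15 values of r were lower. They were 0.53 to 0.85 for DVH24_021694, 0.52 to 0.86 for DVH24_020669 and 0.66 to 0.87 for DVH24_026256, which was not looser there.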

How the data were processed

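Per the submitters' processing notes, the reads passed through CASAVA, HISAT2 2.0.5 and featureCounts 1.5.0-p3. The sources used here name neither genome build nor strand setting, so positions are left out and antisense reads cannot be told apart. The count table that the authors deposited gives whole numbers of reads per gene. The deposited FPKM table holds the same counts divided by coding length and 1 constant per library, and was used to compare levels between genes.

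Protein names are the deposited best Swiss-Prot matches, which 64.1% of genes have. The members, the pathway lists and the choice of libraries in each fit were made with earlier results of these data known. Pathway genes named are the 2 of smallest p in a list, and genes alike in pattern the 5 of highest r for each of the 3 members with most counts.

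edgeR 4.0.16 in R 4.3.3, with TMM scaling and its quasi-likelihood fit, tested the counts of 26053 genes that passed filterByExpr over the 18 libraries. Comparisons within a time used its 9 libraries, and the common dispersion was 0.126 at 48 hour and 0.239 at 4 week, or 0.117 there when TDZ replicate 3 was left out. Comparisons across times used all 18. SE and 95% intervals derive from the quasi-likelihood F statistic. Scripts were tested on simulated data. The alternatives were the other choice of libraries in the fit, DESeq2 1.42.0, RLE scaling, no filter on low counts, the replicate number as a block, summing 4 libraries whose names end in b with the library whose name they otherwise repeat, and leaving out each library in turn.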

Additional observations from a re-analysis of the deposited data

Results flagged for a closer look

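For 2 D3 cyclins the response to TDZ differed between the times in a test of the difference itself. For DVH24_020669 the log2 difference, 4 week minus 48 hour, was 3.41 ± 0.98 (edgeR, adjusted p = 0.0459). TDZ over control was 3.67 at 4 week, where TDZ was higher in 2 of 3 libraries than in any control, and 0.28 at 48 hour. For DVH24_034282 it was 3.62 ± 0.95 (adjusted p = 0.0347), with 3.61 at 4 week, where TDZ was higher in 3 of 3 libraries, and -0.0024 at 48 hour. In this test 5.44% of all genes were called higher and 7.58% in either direction. Over the 6 alternatives that left out no library, the adjusted p ranged from 0.000629 to 0.128 for DVH24_020669 and from 0.00271 to 0.11 for DVH24_034282. Of the 18 fits that left out 1 library, 2 called DVH24_020669 and 8 called DVH24_034282.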

How the results depend on the processing

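The falls over time on control (4 of 6 genes) and BAR (6 of 6) kept their number in all 6 alternatives and in 4 to 4 and 5 to 6 genes when 1 library was left out. Of all genes 27.3% to 42.0% on control and 15.4% to 33.2% on BAR were called in these alternatives. With 1 library left out the shares were 25.4% to 42.4% and 11.2% to 29.7%. The fit of all 18 libraries gave 0 calls for TDZ against control at 48 hour, and at 4 week 4 for TDZ against control, 2 for BAR against control and 3 for TDZ against BAR. In the same order it called 0%, 26.6%, 29.9% and 8.40% of all genes. DESeq2 gave 1 call for TDZ against BAR at 48 hour, and at 4 week 4 for TDZ against control, 1 for BAR against control and 3 for TDZ against BAR. Its shares of all genes were 1.88%, 28.7%, 32.3% and 10.7%. RLE scaling gave 1 for BAR against control at 4 week and 3 for the difference of the TDZ response between times, where DESeq2 and no filter also gave 3. For BAR against control RLE scaling called 17.7% of all genes. For the TDZ response the shares were 7.76% with RLE scaling, 16.3% by DESeq2 and 5.71% without filter. No filter gave 0 for TDZ against control at 4 week, where 2.16% of all genes were called. With the libraries named b summed, the calls were 4 for TDZ against control and 1 for BAR against control at 4 week, 4 for the difference of the TDZ response and 1 for that of the BAR response. These stand beside 21.2%, 18.7%, 13.3% and 10.8% of all genes. With only the groups compared, the calls were 0 for TDZ over time, 0 for the TDZ response and 1 for the BAR response, beside 3.24%, 0% and 21.3% of all genes. The cause of these moves was not tested.

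Leaving out 1 library gave 0 to 1 calls for TDZ against control at 48 hour, 0 to 4 at 4 week, 0 to 3 for BAR against control and 0 to 5 for TDZ against BAR at 4 week, 0 to 1 for TDZ over time, 0 to 4 for the TDZ response and 0 to 1 for the BAR response. Within a time, 0.0537% to 0.507%, 0% to 41.5%, 0% to 36.8% and 0% to 12.1% of all genes were called, in that order. For TDZ over time and the TDZ and BAR responses the shares were 11.4% to 23.7%, 0% to 27.3% and 4.13% to 22.6%. Deviations of libraries that share a replicate number correlated at -0.33 to 0.33. From 3 libraries a group, these values cannot decide whether the number pairs the libraries. With the replicate number as a block the calls were 0 for TDZ against control at 4 week and 1 for the TDZ response. These stand beside 0% and 2.94% of all genes.

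Directions turned only for values that gave no call. DVH24_034282 was 0.0059 for TDZ against control at 48 hour with all 18 libraries and -0.47 to 0.33 with 1 left out, and for TDZ over time -0.17 with the replicate block and -0.50 to 0.50. DVH24_021694 had a BAR response of 0.0028 without filter, 0.019 with the block and -0.22 to 0.40 with 1 left out. With 1 left out, DVH24_026256 ranged from -0.044 to 0.20 for TDZ against control at 48 hour and -0.38 to 0.012 for TDZ over time, DVH24_020669 from -0.11 to 0.26 for TDZ against BAR at 48 hour, DVH24_030105 from -0.068 to 0.21 for the TDZ response and DVH24_034282 from -0.19 to 0.95 for the BAR response.

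Over all genes, TDZ against control at 4 week gave 1458 calls, but 6920 in the fit of all 18 libraries, 7408 by DESeq2, 5533 with libraries named b summed, 710 without filter and 0 with the block. BAR against control at 4 week gave 4335, but 7800 with all 18 libraries, 8346 by DESeq2 and 2710 with the block. TDZ against BAR at 4 week gave 135, but 2189, 2703 and 0 in the same fits, and 0 with libraries named b summed. At 48 hour, TDZ against control, BAR against control and TDZ against BAR gave 91, 9 and 29 calls, 0 each with all 18 libraries, 411, 76 and 489 by DESeq2, 169, 26 and 139 without filter, and 45, 4 and 7 with the block. TDZ against BAR gave 94 with libraries named b summed. With only the groups compared, TDZ over time gave 844 in place of 5229, BAR over time 8651 in place of 5528, the TDZ response 0 in place of 1975 and the BAR response 5550 in place of 2968. The TDZ response gave 4241 by DESeq2, 767 with the block and 3460 with libraries named b summed, and the BAR response 5048 by DESeq2.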
